A study of Mus musculus with 60 samples.

Results

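The comparison set GFP-high epithelial cells of the mouse proximal colon against GFP-negative cells of the same organ part, with 4 RNA-seq libraries on each side out of the 60 libraries of the series. All libraries came from Lgr5-2A-eGFP mice aged 8 weeks, in which the Lgr5 locus also carries eGFP behind a 2A peptide, so both groups share that allele. No other genotype, treatment or strain is given in the labels. Crypts were released with a chelating buffer, dissociated with TrypLE, and sorted by GFP into high, intermediate and negative fractions of at least 30000 cells. The 8 libraries were chosen by their titles, and all 4 of each title were used. The study, by its title, addresses Nox1 and Npy1r as marks of regional stem cell populations of the colon. Proximal GFP-intermediate libraries (4) and distal colon GFP-high and GFP-negative libraries (4 each) were used where named.

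Lgr5 encodes a receptor for R-spondins, secreted proteins that raise the number of Frizzled Wnt receptors at the cell surface. In the colon it is best known as a mark of the columnar stem cells at the crypt base, whose daughters divide in the lower crypt and then mature into absorptive colonocytes, goblet cells, enteroendocrine cells and tuft cells as they move towards the surface. Wnt signals are strongest at the crypt base, whereas BMP signals and ephrin-B ligands rise towards the surface.

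Levels are given in CPM, read counts scaled to a common library total with sizes adjusted by the trimmed mean of M-values (TMM), in the order of libraries 1 to 4. Differences are log2 values of GFP-high over GFP-negative with their standard error from edgeR's quasi-likelihood test, with p adjusted after Benjamini and Hochberg across 23360 tested genes. A gene is called higher or lower where the adjusted p is below 0.05. The labels do not say whether the 4 libraries of a group came from separate animals, so the p-values measure only the spread between libraries. That spread was estimated within all 15 groups of the 60 libraries, not in the 8 libraries alone.

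Total counts of the 8 libraries lay between 71796271 and 113917959. Lgr5 itself, which the sort follows through eGFP and which therefore checks the labels rather than giving a result, measured 334, 263, 257 and 202 CPM in GFP-high and 17.4, 12.2, 9.32 and 9.89 CPM in GFP-negative (log2 difference 4.44 ± 0.30, adjusted p = 7.82e-16). The epithelial adhesion genes Epcam and Cdh1 did not pass the test (−0.10 and −0.08, adjusted p = 0.543 and 0.55), with Epcam between 1209 and 1792 CPM in every library. Both belong to a list of 14 epithelial identity genes, of which 6 were lower and none higher (median −0.37). That list summed to 8844 to 12193 CPM in GFP-high and 11896 to 17898 CPM in GFP-negative. The summed level of 28 pan-leukocyte and T cell genes was 22.4, 33.4, 25.5 and 43.0 CPM in GFP-high but 826, 265, 2371 and 791 CPM in GFP-negative, so GFP-negative library 3 stood highest. Xist, which is transcribed from the inactive X chromosome, measured 487, 348 and 164 CPM in library 1 of GFP-high, GFP-intermediate and GFP-negative, which also held the Y-linked Ddx3y (46.1, 40.5 and 42.2 CPM), whereas the proximal colon libraries numbered 2 to 4 reached at most 1.498 CPM of Xist. Counts of several lists below moved by over 1.5 times when 1 of these or another library was left out, and the values without it stand beside them.

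Of the 23360 genes, 5912 were called (25.3%), 2640 higher (11.3%) and 3272 lower (14%) in GFP-high. The median log2 difference was 0.73 among genes called higher, −1.86 among genes called lower (−1.63 with genes that had no count in GFP-high set at the bound that 3 counts per library allow) and −0.04 over all genes. The 4 and 4 libraries did not overlap for 4302 genes (18.4%), of which 3577 were called. Fitted on the 8 libraries alone, without the spread of the other groups, 2897 genes were called (1095 higher, 1802 lower), and 95.7% of them were calls in the same direction in the fit of all 60 libraries. With the replicate number as a block in these 8 libraries, 1915 were called (683 higher, 1232 lower). Of the 3272 genes called lower, 1981 (60.5%) had their highest level in GFP-negative library 3, against 33.0% of all genes tested. Without that library 4752 genes were called, 2364 higher and 2388 lower.

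Crypt base stem cell genes were higher in GFP-high for 25 of 31 tested members, with 1 lower and 5 not called, and a list median of 1.30 on the log2 scale. Apart from Lgr5, the member with the smallest p was Smoc2, a secreted matricellular protein of the crypt base, at 243, 203, 253 and 207 CPM in GFP-high and 19.4, 16.4, 15.3 and 11.8 CPM in GFP-negative (3.85 ± 0.15, adjusted p = 4.44e-26). Every GFP-high library lay above every GFP-negative library. Ascl2, the Wnt-driven transcription factor that maintains intestinal stem cells, measured 68.8, 59.1, 36.1 and 71.9 CPM against 10.4, 7.72, 2.54 and 4.51 CPM (3.23 ± 0.35, adjusted p = 8.51e-10). Library 3 was lowest on both sides for Ascl2, and the groups did not overlap.

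Other members of the stem cell list differed by less. Rgmb, a BMP co-receptor, measured 319, 289, 238 and 265 CPM against 113, 117, 55.5 and 110.4 CPM (1.49 ± 0.15, adjusted p = 8.81e-11). Lrig1, a negative regulator of ErbB receptors, rose by 1.30 ± 0.14, and Mex3a, an RNA-binding protein of slowly cycling Lgr5 cells, by 1.90 ± 0.20. Cd44, the hyaluronan receptor and Wnt target, measured 491, 353, 479 and 367 CPM against 96.7, 102, 98.2 and 198 CPM, with library 4 the highest of GFP-negative (1.77 ± 0.22, adjusted p = 1.97e-08). Prelp, a proteoglycan, and Scn2b, a sodium channel subunit, rose by 2.84 ± 0.21 and 3.97 ± 0.31.

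The member called lower was the urea transporter gene Slc14a1, at 0, 0.115, 0.204 and 0.0808 CPM in GFP-high and 2.94, 0.361, 10.001 and 3.14 CPM in GFP-negative, highest in the library with the highest leukocyte sum. Olfm4, a secreted glycoprotein that marks stem cells in the small intestine, was called higher (3.86 ± 0.89, adjusted p = 0.000856) on levels of 0, 13.0, 3.89 and 3.15 CPM against 0.0532, 0.917, 0.416 and 0 CPM, so the groups overlapped. Its call was lost in the 8 libraries alone (adjusted p = 0.101). The 5 members not called were Zfp703 (0.79), Aqp4 (−0.45), Hopx (0.57), Agr2 (−0.19) and Clca4a (−0.17). With GFP-negative library 3 left out 25 members were higher, and with all libraries numbered 1 left out 26 were.

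**Figure D1:**
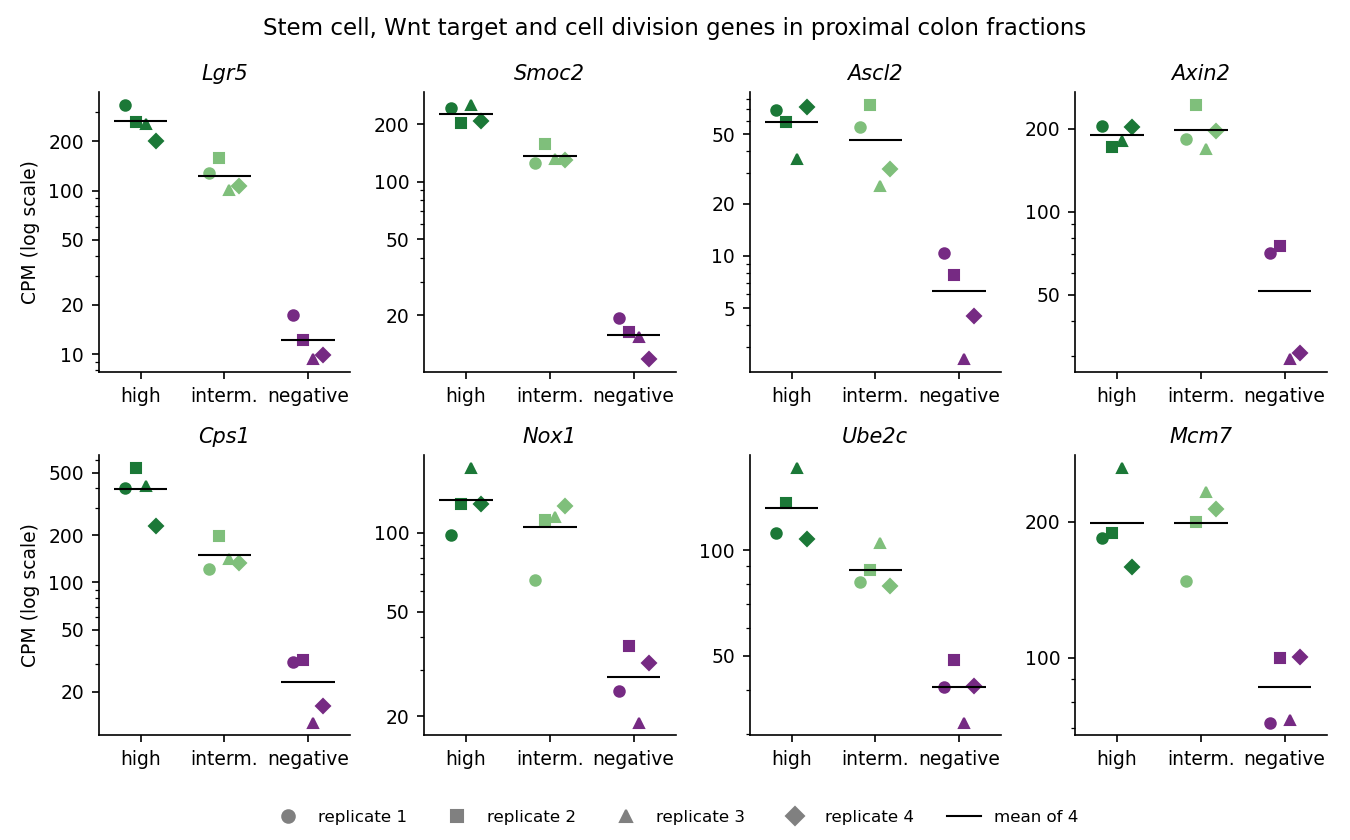
Level in CPM (log axis) of 8 genes in each proximal colon library, with a point for each of 4 GFP-high, 4 GFP-intermediate and 4 GFP-negative libraries and a line at the group mean. GFP-high points lie above all GFP-negative points for every gene, from Lgr5 (202 to 334 against 9.32 to 17.4 CPM) to Mcm7 (159 to 263 against 71.9 to 100.4 CPM), and the GFP-intermediate mean of Lgr5 is 124 CPM.

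Outside the stem cell list, the largest differences among called genes with non-overlapping libraries and at least 10 CPM on the higher side included Cps1, the mitochondrial enzyme that feeds ammonia into the urea cycle. Cps1 measured 399, 537, 414 and 229 CPM in GFP-high and 31.2, 31.95, 12.8 and 16.2 CPM in GFP-negative (4.10 ± 0.24, adjusted p = 3.02e-18). GFP-high library 4 was the lowest of its group, yet far above the highest GFP-negative library. Fut9, a fucosyltransferase that makes the Lewis x glycan, measured 16, 10.6, 22.0 and 21.3 CPM against 0.772, 0.834, 0.947 and 2.63 CPM (3.75 ± 0.37, adjusted p = 2.03e-08). The 15 genes with the largest differences also held Rgcc, a cell cycle regulator (3.18 ± 0.40), the metalloprotease Adamts16 (3.18 ± 0.66), the chemokine scavenging receptor Ackr3 (3.02 ± 0.67), the retinol dehydrogenase Rdh1 (3.04 ± 0.40), the glutamate transporter Slc1a2 (2.85 ± 0.60), the vascular ligand Angpt2 (2.85 ± 0.30), Vsig1 (3.14 ± 0.62), Limch1 (3.01 ± 0.50) and the predicted gene Gm32742 (3.08 ± 0.40).

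Wnt signals reach the cell through Frizzled receptors, whose number R-spondin receptors and their partner ligases set. Among 19 Wnt receptors and R-spondin pathway genes 6 were higher (31.6%), 2 lower (10.5%) and 11 not called (median 0.37). Of all genes tested 11.3% were higher and 14% lower. Of the Frizzled receptors, Fzd7 measured 77.8, 60.7, 68.3 and 62.6 CPM in GFP-high and 23.3, 27.1, 16.1 and 23.7 CPM in GFP-negative (1.58 ± 0.17, adjusted p = 1.11e-09), and Fzd2 rose by 1.87 ± 0.40. Fzd5 went the other way, at 71.4, 105, 67.4 and 92.9 CPM against 191, 225, 119 and 162 CPM (−1.05 ± 0.14, adjusted p = 1.69e-07), as did Fzd8 (−1.08 ± 0.22). For these 4 receptors the groups did not overlap. Rnf43 and Znrf3, the membrane ubiquitin ligases that remove Frizzled receptors, were higher by 1.34 ± 0.20 and 1.10 ± 0.15. Lgr4, the R-spondin receptor related to Lgr5, overlapped between groups (0.08 ± 0.14, adjusted p = 0.723).

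Of 24 Wnt feedback and target genes 21 were tested, since Dkk2, Bmp4 and Fgf20 did not pass the filter on low counts, and 11 were higher and 6 lower (median 0.82). Axin2, the scaffold that turns Wnt signalling down again, measured 204, 171, 181 and 202 CPM in GFP-high and 70.5, 75.3, 29.2 and 30.7 CPM in GFP-negative (1.88 ± 0.24, adjusted p = 4.82e-08). Myc measured 109.8, 119.5, 151 and 109 CPM against 45.8, 60.6, 44.6 and 46.4 CPM (1.31 ± 0.18, adjusted p = 1.81e-07). Neither gene overlapped between the groups. Sp5, a repressor induced by Wnt, and Apcdd1, an inhibitor of Wnt at the membrane, rose by 1.55 ± 0.45 and 2.58 ± 0.64 at levels below 6 CPM.

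The lower members included the secreted Wnt inhibitor Wif1, at 0.408, 1.30, 0.318 and 1.54 CPM in GFP-high and 29.9, 32.1, 81.5 and 40.7 CPM in GFP-negative (−5.68 ± 0.79, adjusted p = 2.21e-07). Dkk3 had no count in GFP-high and 0.984, 0.25, 3.86 and 0.875 CPM in GFP-negative, at least 48.4-fold lower. Lef1 and Tcf7, transcription factors of Wnt signalling that T cells also express, differed by −3.37 ± 0.89 and −1.09 ± 0.33 and were highest in GFP-negative library 3 (5.20 and 68.5 CPM), as the leukocyte sum was. With that library left out the lower count was 3.

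The DNA replication and S phase list was higher for 39 of 42 members and lower for none, with a median of 1.01. Rfc3, a subunit of the clamp loader, measured 33.3, 32.6, 49.4 and 29.7 CPM in GFP-high and 14.9, 17.1, 20.1 and 19.4 CPM in GFP-negative (1.02 ± 0.16, adjusted p = 2.61e-06). Pola1, the catalytic subunit of DNA polymerase alpha, measured 82.5, 70.8, 85.1 and 53.2 CPM against 20.2, 30.2, 16.7 and 38.6 CPM (1.46 ± 0.26, adjusted p = 1.66e-05). GFP-high library 3 was the highest and library 4 the lowest GFP-high library for both genes. Mcm7, part of the replicative helicase, rose by 1.20 ± 0.20. The libraries did not overlap for 33 of the 42 members.

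The mitosis and spindle list was higher for 53 of 55 members and lower for none, with a median of 1.44, and the libraries did not overlap for 53. Ube2c, the ubiquitin-conjugating enzyme of the anaphase-promoting complex, measured 112, 136, 171 and 107 CPM in GFP-high and 40.6, 48.6, 32.2 and 41.1 CPM in GFP-negative (1.70 ± 0.22, adjusted p = 6.68e-08). Ttk, a kinase of the spindle checkpoint, measured 46.3, 42.4, 60.4 and 29.7 CPM against 8.08, 11.1, 8.95 and 15.9 CPM (2.02 ± 0.28, adjusted p = 2.56e-07). Library 4 was the lowest GFP-high library for both genes. Further members were Ncaph and Ncapd2, subunits of condensin I (1.78 ± 0.23 and 1.46 ± 0.20), Kif15, a spindle kinesin (1.85 ± 0.26), and Nusap1, a microtubule-binding protein (1.92 ± 0.26). Mki67, the proliferation antigen, measured 587, 524, 806 and 423 CPM against 192, 247, 226 and 326 CPM (1.24 ± 0.27, adjusted p = 0.000499). The summed level of the 55 mitosis genes was 5490, 5261, 6813 and 4359 CPM in GFP-high and 1850 to 2367 CPM in GFP-negative, so GFP-negative cells also held mitotic transcripts. The counts were 53 and 39 without GFP-negative library 3, 53 and 38 without all libraries numbered 1, and 53 and 33 in the 8 libraries alone.

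Promoters of mitotic genes are known for the cell cycle homology region (CHR, TTTGAA) and for CCAAT boxes, and those of replication genes for sites of E2F factors. Because nearly all members of both lists moved together, the 150 bases before the transcription start were read from RefSeq on GRCm38.p6 (mm10) for members of both lists among those with the smallest p. Those of 4 mitotic genes that hold CHR or CCAAT letters on either strand are shown 5′ to 3′ on the strand of the gene, with these letters in capitals. The windows are chr2:164769779-164769928 on the plus strand for Ube2c, chr6:125191587-125191736 on the minus strand for Ncapd2, chr9:122950931-122951080 on the plus strand for Kif15 and chr9:83834539-83834688 on the plus strand for Ttk.
Ube2c: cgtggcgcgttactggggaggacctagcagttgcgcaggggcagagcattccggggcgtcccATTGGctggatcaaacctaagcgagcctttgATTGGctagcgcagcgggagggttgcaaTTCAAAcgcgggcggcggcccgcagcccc
Ncapd2: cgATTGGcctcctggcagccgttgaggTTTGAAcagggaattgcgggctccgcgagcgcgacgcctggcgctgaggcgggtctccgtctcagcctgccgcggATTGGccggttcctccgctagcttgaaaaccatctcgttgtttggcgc
Kif15: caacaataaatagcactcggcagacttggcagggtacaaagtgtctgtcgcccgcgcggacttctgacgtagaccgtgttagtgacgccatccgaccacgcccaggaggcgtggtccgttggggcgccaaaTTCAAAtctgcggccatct
Ttk: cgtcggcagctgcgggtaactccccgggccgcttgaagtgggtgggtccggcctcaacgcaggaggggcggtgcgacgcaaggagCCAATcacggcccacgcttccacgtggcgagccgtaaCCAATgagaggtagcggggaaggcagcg

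The same windows of 2 replication genes, Rfc3 at chr5:151651209-151651358 and Pola1 at chrX:93632156-93632305, both on the minus strand, are shown with the letters TTTCGCGC, TTTGGCGC or TTTCCCGC (E2F) on either strand in capitals.
Rfc3: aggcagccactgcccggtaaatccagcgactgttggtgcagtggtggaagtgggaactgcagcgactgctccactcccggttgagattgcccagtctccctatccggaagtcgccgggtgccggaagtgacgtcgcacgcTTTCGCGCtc
Pola1: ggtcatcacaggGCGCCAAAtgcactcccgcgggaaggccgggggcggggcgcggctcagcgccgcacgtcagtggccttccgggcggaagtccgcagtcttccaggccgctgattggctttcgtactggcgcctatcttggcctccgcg

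Searched on both strands over the 250 bases before the start, the CHR letters stood in 32.6% of the 46 mitosis genes with a window and in 18.3% of all 27025 genes with one. The CCAAT letters stood in 67.4% of the same 46 genes and in 37.5% of all. The E2F letters stood in 25.7% of the 35 S phase genes with a window and in 1.8% of all. Across the lists, the CCAAT letters also stood in 21 and the CHR letters in 6 of the 35 S phase genes, and the E2F letters in 3 of the 46 mitosis genes and 3 of the 20 crypt base stem cell genes with a window. Ncaph, Nusap1, Mcm7, Chaf1b and Mcm10, the other members read, held none of the letters of their list in the 150 bases. The letters CTTTGATC or CTTTGATG of TCF factors, the nuclear partners of Wnt signalling, stood in 1 of these 20 stem cell genes and in 2.0% of all genes. The motifs were counted separately, and a match is a description of the letters, not of binding.

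Ribosome biogenesis factors were higher for 20 of 30 members and lower for none (median 0.50), and in the 8 libraries alone 10 were higher. Gnl3, the nucleolar GTPase nucleostemin, measured 73.7, 72.9, 105 and 65.9 CPM in GFP-high and 32.1, 37.5, 43.1 and 37.5 CPM in GFP-negative (1.08 ± 0.13, adjusted p = 1.28e-08), and Npm1, the nucleolar chaperone nucleophosmin, rose by 0.98 ± 0.12. Among 25 MYC family and nucleotide synthesis genes 15 were higher (60%) and 2 lower (8%), with a median of 0.60, against 11.3% and 14% of all genes tested. Mycl, a MYC paralog, rose by 1.40 ± 0.18 and Impdh2, which commits purines to guanine nucleotides, by 1.02 ± 0.14. The 2 lower members, Mxd1 (−1.35 ± 0.35) and Mxd4 (−0.59), encode partners of MAX that oppose MYC, while Mxd3 of the same family rose by 1.49 ± 0.27. The lower count was 0 without all libraries numbered 1, and 1 in the 8 libraries alone and without GFP-high library 1 or 3 or GFP-negative library 1 or 2.

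Of 16 cell cycle inhibitors 5 were lower (31.25%), 2 higher (12.5%) and 9 not called (median −0.34). Over all genes tested 14% were lower and 11.3% higher. Cdkn1a, which encodes p21, measured 22.2, 55.2, 28.3 and 46.9 CPM in GFP-high and 126, 148, 112 and 54.0 CPM in GFP-negative (−1.53 ± 0.32, adjusted p = 0.000204). GFP-negative library 4 lay within the range of the GFP-high libraries. Cdkn2b (−1.58), Btg2 (−0.77), Btg1 (−0.60) and Gadd45a (−0.53) were also lower, and Cdkn2c (0.99) and Rbl1 (0.59) were higher, whereas Cdkn1b, which encodes p27, was not called (0.20, adjusted p = 0.203). The lower count was 2 with GFP-negative library 3 or GFP-high library 3 left out, and 3 without GFP-high library 4, GFP-negative library 1 or all libraries numbered 1.

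Eph receptors and their ephrin ligands keep cells sorted along the crypt axis. Of 15 tested members 5 were higher (33.3%) and 3 lower (20%), with a median of 0.26, against 11.3% and 14% of all genes tested. Without all libraries numbered 1 the lower count was 1. The receptor Ephb3 measured 134, 155, 156 and 198 CPM in GFP-high and 67.2, 69.8, 45.4 and 37.2 CPM in GFP-negative (1.55 ± 0.20, adjusted p = 5.87e-08). The ligand Efnb2 measured 24.3, 50.7, 28.7 and 45.5 CPM against 105, 122, 94.4 and 84.8 CPM (−1.45 ± 0.22, adjusted p = 1.16e-06). The 4 and 4 libraries of both genes were apart. Epha7 (2.31 ± 0.41), Ephb4 (0.66) and the ligand Efna4 (1.21) were also higher, Efnb1 (−1.10 ± 0.24) and Epha2 (−0.93 ± 0.25) lower. Ephb2 was called higher by 0.49 ± 0.13 (adjusted p = 0.00306), a call lost in the 8 libraries alone (adjusted p = 0.125).

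Notch signalling keeps crypt base cells from secretory fate. The receptor Notch1 measured 141, 147, 139 and 131 CPM in GFP-high and 62.6, 63.6, 61.5 and 49.7 CPM in GFP-negative (1.23 ± 0.21, adjusted p = 7.48e-06), without overlap. Its target Hes1 rose by 0.82 ± 0.16. Of 19 tested Notch pathway genes these 2 were higher (10.5%) and 3 lower (15.8%), shares near the 11.3% and 14% of all genes tested. The lower ones were Mfng (−3.81 ± 0.62), Heyl (−4.33 ± 1.04) and Jag2 (−1.24 ± 0.30), and the list median was 0.00. Mfng, Heyl and Jag2 were highest in GFP-negative library 3 (10.9, 5.82 and 15.6 CPM). Atoh1, the secretory fate factor that Hes1 represses, was not called (−0.03 ± 0.23, adjusted p = 0.96).

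BMP pathway genes and Id targets were lower for 7 of 20 tested members (35%) and higher for 2 (10%), with a median of −0.04. The shares of all genes tested were 14% lower and 11.3% higher. The ligand Bmp2 measured 4.46, 8.83, 3.31 and 5.36 CPM in GFP-high and 18.6, 25.6, 39.1 and 22.2 CPM in GFP-negative (−2.26 ± 0.31, adjusted p = 1.29e-07). The targets Id3 (−1.63 ± 0.26), Id1 (−0.98 ± 0.22) and Id2 (−0.86) and the inhibitory Smads Smad7 (−1.43 ± 0.25) and Smad6 (−1.08) were lower, as was the antagonist Nog, which had no count in GFP-high. Smad5 (0.50) and Bmp7 (0.74) were higher, the call of Bmp7 being lost in the 8 libraries with the replicate block (adjusted p = 0.113). The higher count was 4 without GFP-negative library 4.

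**Figure D2:**
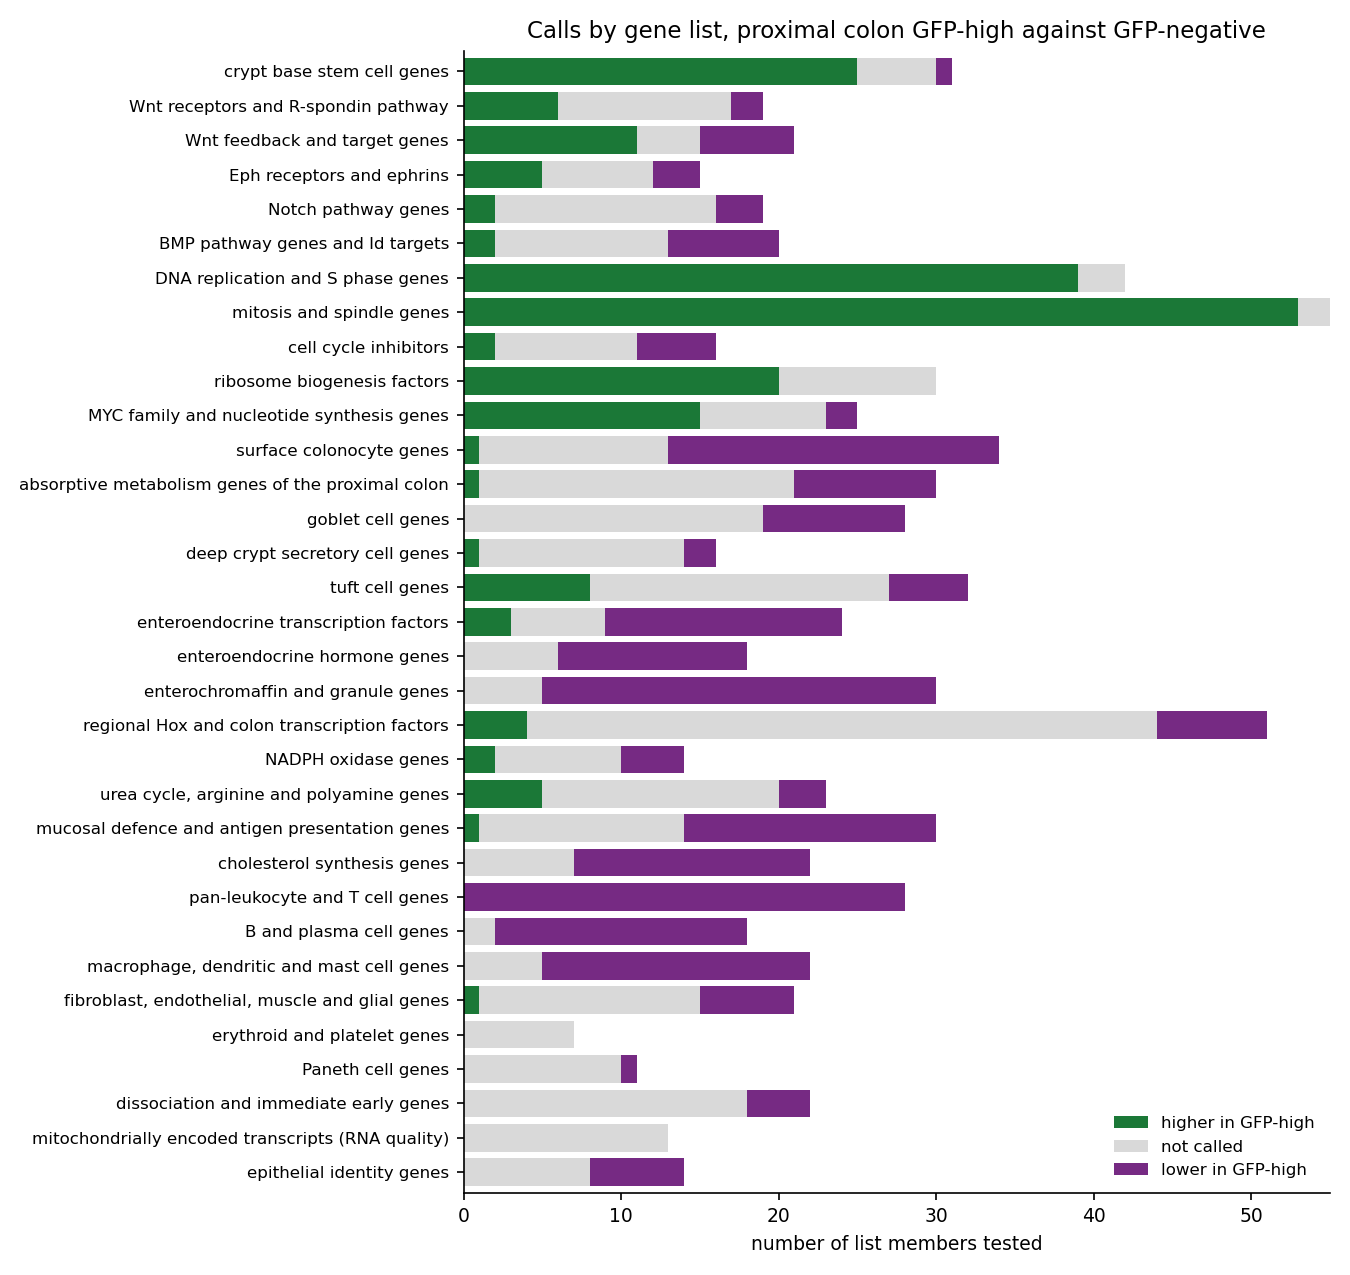
Number of tested members called higher, not called and called lower in GFP-high, as stacked bars for each gene list. Mitosis and S phase genes hold 53 of 55 and 39 of 42 members called higher, and the pan-leukocyte and T cell list holds 28 of 28 called lower.

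Genes of surface colonocytes were lower for 21 of 34 members, higher for 1 and not called for 12 (median −1.12). Krt20, the keratin of mature colonocytes, measured 58.9, 178, 95.5 and 172 CPM in GFP-high and 552, 522, 779.6 and 340.1 CPM in GFP-negative (−2.12 ± 0.40, adjusted p = 4.77e-05). GFP-high libraries 2 and 4 were higher than 1 and 3 but below every GFP-negative library. The membrane protein gene Emp1 (−1.68 ± 0.39), the mucin Muc3 (−1.46 ± 0.35), the chloride and bicarbonate exchanger Slc26a3 (−1.31 ± 0.34), the sodium and proton exchanger Slc9a2 (−1.11 ± 0.25) and guanylin, Guca2a (−0.88 ± 0.22), were lower. The only member called higher was Clca4b (0.95 ± 0.29), and none was without GFP-negative library 1 or all libraries numbered 1. The lower count was 14 without GFP-negative library 3 and 10 without all libraries numbered 1.

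Carbonic anhydrase 1, Car1, measured 1418, 3825, 1460.1 and 2138 CPM in GFP-high and 5793, 5672, 5739 and 5831 CPM in GFP-negative. All GFP-high libraries lay below all GFP-negative libraries, but the gene was not called with the spread of all 60 libraries (−1.38 ± 1.42, adjusted p = 0.536). In the 8 libraries alone it was called lower (adjusted p = 0.00841). The water channel Aqp8 overlapped between groups and was not called (−1.86 ± 0.78, adjusted p = 0.0736). Lower calls of Aqp8 came from 5 of the alternatives. Blocking by replicate in all libraries gave −2.18 (adjusted p = 0.0238), and the 8 libraries alone gave −1.85 (0.0452). The others were the 24 colon libraries alone (0.0137), the newer quasi-likelihood method (0.000714) and the fit without GFP-negative library 4 (0.0477). The remaining alternatives did not call it.

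Absorptive metabolism genes were lower for 9 of 30 members and higher for 1 (median −0.54). Slc16a1, the monocarboxylate transporter that takes up butyrate, measured 149, 189.5, 119 and 176 CPM in GFP-high and 276, 319, 233 and 288 CPM in GFP-negative (−0.81 ± 0.11, adjusted p = 1.55e-07). Acads, an enzyme of fatty acid oxidation, was also lower (−0.50 ± 0.16). The only member called higher was the alcohol dehydrogenase Adh1 (0.78 ± 0.23). Without GFP-high library 3 the lower count was 5, without all libraries numbered 1 it was 6, and the higher count was 0 without GFP-high library 4. Cholesterol synthesis genes were lower for 15 of 22 members and higher for none (median −0.49). That count was 6 without all libraries numbered 1, between 6 and 8 without GFP-high library 1, 3 or 4 or GFP-negative library 2, and 3 in the 8 libraries alone.

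Goblet cell genes were lower for 9 of 28 members and higher for none (median −0.31). The lectin-like Zg16 measured 105, 286, 126 and 274 CPM in GFP-high and 1212, 1355, 1142 and 559.7 CPM in GFP-negative (−2.43 ± 0.40, adjusted p = 5.55e-06). Fcgbp, which crosslinks mucus, measured 583, 1862, 379 and 936 CPM against 4562, 5708, 1999 and 3693 CPM (−2.09 ± 0.35, adjusted p = 1.04e-05). Both were apart in the 4 and 4 libraries, as were Tff3 (−1.72 ± 0.30) and Clca1 (−2.10 ± 0.52), which encode secreted components of mucus. Muc2, the gel-forming mucin, overlapped at 19783, 26473, 9805 and 13905 CPM against 23644, 24765, 11238 and 29172 CPM (−0.34 ± 0.30, adjusted p = 0.438), and so did Spdef, a goblet cell transcription factor, with an adjusted p of 1. The lower count was 5 with all libraries numbered 1, GFP-high library 3 or GFP-negative library 1 left out.

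Deep crypt secretory cells neighbour the stem cells at the colon crypt base, and their genes were called in 3 of 16 cases, Cftr higher and Sct and Mptx1 lower (median 0.05). These shares, 6.25% higher and 12.5% lower, did not exceed the 11.3% and 14% of all genes tested. The markers Reg4 (0.37 ± 0.36, adjusted p = 0.509) and Kit (−0.08 ± 0.21, adjusted p = 0.845) overlapped between groups, with Reg4 at 818, 1507, 569.8 and 681 CPM against 463, 990.4, 500.3 and 808 CPM. Cftr, the chloride channel, measured 669, 457, 467 and 370.1 CPM against 264, 296, 154 and 477 CPM (0.72 ± 0.20, adjusted p = 0.00535). GFP-negative library 4 lay above 3 GFP-high libraries, and the call was lost in the 8 libraries alone (adjusted p = 0.151), without all libraries numbered 1 (0.134) and without GFP-high library 1 (0.0602). The lower count was 1 without GFP-high library 1, 2 or 3 or GFP-negative library 4, and the higher count was 2 without GFP-negative library 3.

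Tuft cells are chemosensory cells of the epithelium that release interleukin 25 and eicosanoids. Their list was called higher for 8 of 32 members (25%) and lower for 5 (15.6%), with a median of 0.42, against 11.3% and 14% of all genes tested. GFP-high sums of 592, 599, 597 and 894 CPM and GFP-negative sums of 427, 516, 674 and 620 CPM overlapped. Siglecf, a sialic acid receptor, measured 9.38, 12.4, 12.8 and 15.6 CPM in GFP-high and 4.20, 3.61, 5.61 and 3.96 CPM in GFP-negative (1.53 ± 0.37, adjusted p = 0.00162). Hpgds, which makes prostaglandin D2, rose by 1.18 ± 0.34 (adjusted p = 0.00761), and Chat, Trim38 and the interleukin 25 receptor subunit Il17rb rose by 1.30 ± 0.45, 1.45 ± 0.45 and 0.97 ± 0.30. The lower members were Lrmp, Tas1r3, Alox5ap, Plcb2 and Fyb, of which Lrmp, Plcb2 and Fyb are also expressed by leukocytes and were highest in GFP-negative library 3 (71.9, 42.8 and 49.0 CPM). The defining genes Trpm5 (0.59 ± 0.27, adjusted p = 0.0973), Pou2f3 (0.38 ± 0.30, adjusted p = 0.385) and Dclk1 (0.31 ± 0.28, adjusted p = 0.48) overlapped between groups. The higher count was 4 without GFP-high library 4 and 5 without GFP-negative library 1 or 3, and the lower count was 0 without GFP-negative library 3, 1 without GFP-high library 1, and 2 without GFP-high library 2 or 3 or all libraries numbered 1.

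Enteroendocrine genes were lower in GFP-high. Of 30 enterochromaffin and secretory granule genes 25 were lower and none higher (median −3.71, or −3.53 with bounds), of 18 tested hormone genes 12 were lower and none higher (−3.16, or −2.83), and of 24 enteroendocrine transcription factors 15 were lower and 3 higher (−1.99, or −1.87). Chga, the granule protein chromogranin A, measured 24.6, 50.5, 19.01 and 87.9 CPM in GFP-high and 1831, 1707, 4106 and 892 CPM in GFP-negative (−5.55 ± 0.53, adjusted p = 2.35e-11). Tph1, which makes serotonin in enterochromaffin cells, measured 8.69, 18.9, 11.9 and 18.97 CPM against 394, 311, 1115 and 707 CPM (−5.43 ± 0.48, adjusted p = 3.93e-12). For both genes GFP-negative library 3 was the highest of all libraries, and the lowest GFP-negative library lay far above the highest GFP-high library. In these bulk samples fewer cells of a type and less RNA per cell cannot be told apart, for these genes and for those of the other cell types.

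Slc18a1, the vesicular monoamine transporter, measured 5.44, 6.30, 0.862 and 6.23 CPM in GFP-high and 52.6, 58.6, 124 and 53.5 CPM in GFP-negative (−3.94 ± 0.33, adjusted p = 7.26e-13). Chgb (−5.08 ± 0.47), the prohormone processing enzyme Cpe (−4.10 ± 0.35) and the convertase inhibitor Pcsk1n (−6.38 ± 0.85) were lower too. Among the hormones, somatostatin Sst (−3.49 ± 0.55), the tachykinin Tac1 (−2.84 ± 0.34), proglucagon Gcg (−2.40 ± 0.49) and secretin Sct (−3.52 ± 0.47) were lower without overlap, peptide YY overlapped between groups (−2.36 ± 0.53), and Insl5 was not called (−1.16 ± 0.77, adjusted p = 0.3). Among the transcription factors Insm1 (−3.53 ± 0.43), Neurod1 (−4.02 ± 0.50) and Myt1 (−4.26 ± 0.44) were lower. Mlxipl, Sox4 and Mnx1 were called higher (1.19 ± 0.17, 1.17 ± 0.21 and 1.04 ± 0.33). Their share of the transcription factor list was 12.5%, near the 11.3% of all genes tested. Neurog3, the factor that starts the lineage, measured 4.43, 3.71, 3.27 and 4.44 CPM against 2.73, 2.36, 1.54 and 2.27 CPM and was not called (0.83 ± 0.47, adjusted p = 0.204). The summed level of the 30 enterochromaffin genes was 371 to 770 CPM in GFP-high and 4435 to 12507 CPM in GFP-negative, highest in library 3 of GFP-negative, and 22 members were lower without that library.

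The leukocyte list was lower for 28 of 28 members (median −7.66, or −7.51 with bounds). Ptprc, which encodes CD45, measured 4.40, 6.29, 4.92 and 10.6 CPM in GFP-high and 126, 48.5, 429 and 209 CPM in GFP-negative (−4.95 ± 0.59, adjusted p = 8.42e-09). Gzmb, a granzyme of cytotoxic lymphocytes, measured 0.163, 0.252, 0 and 0.307 CPM against 38.0, 15.02, 149 and 39.7 CPM (−8.32 ± 0.82, adjusted p = 1.41e-10). For both genes GFP-negative library 3 was highest and library 2 lowest among the GFP-negative libraries. The defining genes Cd2, Cd4 and Cd5 had no count in GFP-high. B and plasma cell genes were lower for 16 of 18 members, with sums of 0.296 to 1.85 CPM in GFP-high and 79.2, 46.6, 193 and 57.9 CPM in GFP-negative. Macrophage, dendritic and mast cell genes were lower for 17 of 22 tested members, with sums of 33.6 to 46.7 CPM against 71.7 to 194 CPM.

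Of the 15 genes with the largest differences in the lower direction, 14 were highest in GFP-negative library 3. Pglyrp2, a peptidoglycan amidase, had no count in GFP-high and 6.92, 2.64, 25.2 and 7.23 CPM in GFP-negative, at least 341-fold lower. Dtx1, a regulator of Notch in lymphocytes, had 22.6, 5.25, 43.7 and 7.57 CPM in GFP-negative and at most 0.0229 CPM in a GFP-high library. Nkg7 (−9.12 ± 1.15) and Klrk1 (−9.00 ± 1.22), genes of cytotoxic and natural killer lymphocytes, and Ighm (−9.05 ± 1.11) stood among them. Klra5 and Klra7 belong to a family of near-identical genes, so their counts are uncertain. The remaining gene, Igha, the constant region of immunoglobulin A, measured 31.3, 20.02, 27.0 and 10.1 CPM in GFP-negative and was highest in library 1. Fibroblast, endothelial, muscle and glial genes were lower for 6 of 21 tested members (Thy1 −7.10 ± 1.07, Vim −3.47 ± 0.44 and Pecam1 −2.80 ± 0.59 among them) and higher for 1, Vwf (0.98 ± 0.36), while Des and Cdh5 had no count in GFP-high. The higher count was 0 in the 8 libraries alone and without GFP-high library 1 or 2, GFP-negative library 2 or 4, or all libraries numbered 1. The part of these cells in the differences of genes that both they and the epithelium express was not tested.

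**Figure D3:**
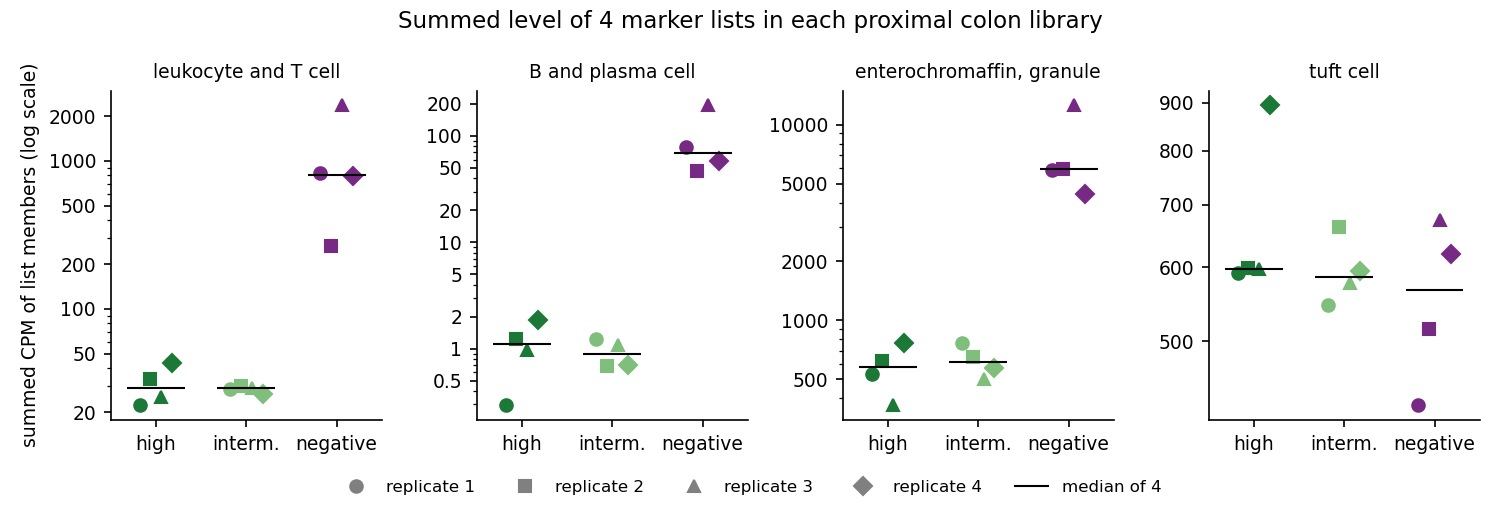
Summed CPM (log axis) of 4 marker lists in each proximal colon library, with a point per library and a line at the group median. The leukocyte sums of GFP-negative lie between 265 and 2371 CPM, above GFP-high at 22.4 to 43.0 CPM, whereas the tuft cell sums overlap at 427 to 674 and 592 to 894 CPM.

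Mucosal defence and antigen presentation genes were lower for 16 of 30 members and higher for 1 (median −1.07). The interferon regulator Irf7 (−1.38 ± 0.26), the peptide transporter Tap1 (−0.92 ± 0.22) and Lypd8, which keeps bacteria from the colon surface (−1.12 ± 0.28), were lower. The class II gene H2-Aa (−2.20 ± 0.76) was highest in GFP-negative library 3 at 27.6 CPM, and 9 members were lower without that library, without GFP-high library 3 and without all libraries numbered 1. The member called higher was Nlrp6, an inflammasome sensor, at 547, 463, 393 and 522 CPM in GFP-high and 333, 294, 156 and 218 CPM in GFP-negative (0.94 ± 0.15, adjusted p = 2.25e-06), without overlap.

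Nox1, the epithelial NADPH oxidase named in the study's title, measured 98.5, 129, 177 and 129 CPM in GFP-high and 24.9, 37.1, 18.9 and 31.8 CPM in GFP-negative of the proximal colon (2.24 ± 0.53, adjusted p = 0.00111). Library 3 was the highest in GFP-high and the lowest in GFP-negative. Noxa1, an activating subunit of Nox1, rose by 0.88 ± 0.24, a call lost in the 8 libraries with the replicate block (adjusted p = 0.0591), and the 2 were the only members called higher of 14 NADPH oxidase genes tested (median −0.33). The lower members Ncf1, Cybb, Ncf4 and Rac2 belong to the phagocyte oxidase. Of this list 14.3% was higher and 28.6% lower, against 11.3% and 14% of all genes tested. In the distal colon Nox1 measured 279.5, 226, 355 and 322 CPM in GFP-high and 59.3, 66.9, 49.0 and 62.3 CPM in GFP-negative, a difference of 2.32, and the difference between the 2 parts of the colon was not called (−0.07 ± 0.72, adjusted p = 1).

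Of 51 tested Hox and other regional transcription factors 4 were higher (7.8%), 7 lower (13.7%) and 40 not called (median −0.10). Over all genes tested 11.3% were higher and 14% lower. Gata6 (0.66 ± 0.13), a factor of endodermal identity, and Prdm16 (0.64 ± 0.15) were higher without overlap, and Hoxd13 was called higher at 0.681 CPM or less. In the 8 libraries with the replicate block Gata6 and Prdm16 were not called (adjusted p = 0.0522 and 0.126). Klf4, which promotes cell cycle exit and goblet cell maturation, measured 72.3, 155, 81.5 and 169 CPM in GFP-high and 389, 423, 367 and 189.5 CPM in GFP-negative (−1.52 ± 0.26, adjusted p = 8.52e-06). Hoxa13 (−0.61 ± 0.21), Hnf4a (−0.31 ± 0.11), Gata4 (−1.48 ± 0.48, at most 1.55 CPM), Klf6, Meis1 and Satb1 were also lower, the last also a T cell factor and highest in GFP-negative library 3 at 14.3 CPM. Cdx2 (−0.15 ± 0.28), which specifies the intestine, overlapped between groups. The lower count was 3 with all libraries numbered 1 or GFP-high library 1 left out, and 4 without GFP-high library 3.

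Besides Cps1, urea cycle, arginine and polyamine genes were called higher for 4 further members and lower for 3 of 23 (list median 0.09). With Cps1 counted, 21.7% of the list was higher and 13.0% lower, against 11.3% and 14% of all genes tested. Oat, ornithine aminotransferase, measured 564, 486, 418 and 451 CPM in GFP-high and 237, 279.8, 163 and 304 CPM in GFP-negative (0.96 ± 0.17, adjusted p = 1.21e-05). Otc, the next enzyme of the urea cycle after Cps1, was called higher by 0.44 ± 0.15 (adjusted p = 0.0262) with overlapping libraries, a call lost without GFP-negative library 3 (adjusted p = 0.162), without GFP-high library 1 (0.129) and in the 8 libraries alone (0.305). Arg2, the mitochondrial arginase, was lower (−1.29 ± 0.34), a call lost without all libraries numbered 1 (adjusted p = 0.0605). The list held 3 higher members without GFP-high library 1, GFP-negative library 1 or 3, or all libraries numbered 1, and its lower count was 0 without the last and 1 without GFP-high library 3.

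Mitochondrially encoded transcripts were called in 0 of 13 cases, with sums of 27202 to 46245 CPM in GFP-high and 24515 to 41561 CPM in GFP-negative. Of 22 dissociation and immediate early genes 4 were lower (Hspb1, Egr3, Junb and Jund) and none higher, and the 11 Paneth cell and 7 tested erythroid and platelet genes held 1 call, Lyz1 lower. The lower share was 18.2% in the dissociation list and 9.1% in the Paneth cell list, against 14% of all genes tested. Without GFP-high library 4 the mitochondrial list held 2 higher members, the dissociation list 3 and the erythroid list 1 lower member, and without GFP-negative library 4 the mitochondrial list held 1 higher member. The dissociation list held 2 lower members without GFP-negative library 3 or all libraries numbered 1, 1 higher member without either of these or without GFP-high library 1 or 2 or GFP-negative library 4, and 2 higher members with the replicate block on all libraries. The call of Lyz1 was lost without GFP-high library 1 or 4 and without GFP-negative library 3 or 4. It was also lost by DESeq2's Wald test, by the newer quasi-likelihood method and with the 24 colon libraries alone. Without GFP-negative library 3, 1 Paneth cell gene was higher. Of 14 epithelial identity genes 6 were lower, among them the claudin Cldn4 (−2.89 ± 0.38) and the keratins Krt19 (−0.97 ± 0.16) and Krt8 (−0.94 ± 0.16). Without all libraries numbered 1, and in the 8 libraries alone, 3 members were lower.

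GFP-intermediate libraries of the proximal colon, which entered the fit only through its shared estimate of the spread, lay mostly between the groups for called genes. Their mean fell between the means of GFP-high and GFP-negative for 81.5% of the genes called higher, 72.6% of those called lower and 47.3% of all genes. It was nearer to GFP-high than to GFP-negative on the log2 scale for 80.3%, 70.6% and 58.5% of these genes. Called genes were selected for a gap between the GFP-high and GFP-negative means, so the shares of all genes are not a like base. Lgr5 measured 128, 158, 101 and 107 CPM there and Cps1 122, 198, 142 and 133 CPM, between both groups. Axin2, at 184, 244, 169 and 197 CPM, overlapped with the GFP-high libraries. Chga, at 99.8, 72.1, 49.0 and 49.3 CPM, stayed far below the 892 to 4106 CPM of GFP-negative.

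The difference between fractions was then compared between the proximal and the distal colon by an interaction term. Of the genes called in the proximal colon, 1799 were also called higher and 1985 also called lower in the distal colon, and 20 were called in opposite directions, 10 each way. The share of all genes called in the distal colon is not given here, so these counts have no base rate beside them. The interaction was called for 144 genes (0.616%), with 60 more positive (0.257%) and 84 more negative (0.36%) in the proximal colon. Fitted on the 16 libraries of both parts alone, 48 genes were called.

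Of the 32 tuft cell genes 18 were called more positive in the proximal colon, and the alternative fits called between 14 and 21, with 14 without proximal GFP-negative library 3 and 14 without all libraries numbered 1. In the distal colon 27 of the 32 were called lower in GFP-high and 1 higher (median −2.21). Trpm5, the cation channel of taste transduction, measured 42.8, 51.7, 61.0 and 91.4 CPM in proximal GFP-high and 33.0, 41.8, 48.5 and 40.7 CPM in proximal GFP-negative, but 13.8, 13.5, 12.6 and 15.6 CPM in distal GFP-high and 75.3, 60.3, 82.3 and 54.8 CPM in distal GFP-negative (difference between parts 2.88 ± 0.38, adjusted p = 9.33e-06). Distal GFP-high was thus the lowest of the 4 groups, without overlap. Dclk1, a kinase used as a tuft cell mark, measured 75.6, 81.8, 84.8 and 109.7 against 40.1, 75.7, 63.2 and 105 CPM in the proximal and 19.998, 17.5, 20.7 and 26.6 against 109, 83.8, 132 and 138 CPM in the distal colon (2.75 ± 0.41, adjusted p = 5.3e-05). Alox5, which starts leukotriene synthesis (3.01), Rgs13 (2.92), Sh2d7 (2.91), the actin regulator Avil (2.60) and Pou2f3, the master regulator of the lineage (1.69 ± 0.42, adjusted p = 0.0392), were also called. The leukocyte gene Ptprc was not called by the same test (−0.05 ± 0.73, adjusted p = 1).

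Of 70 enteroendocrine genes tested 6 were called more negative in the proximal colon. Tac1 measured 2.49, 3.56, 2.47 and 3.57 CPM in proximal GFP-high and 14.8, 13.7, 36.5 and 21.3 CPM in proximal GFP-negative, against 3.48, 2.92, 5.08 and 4.27 CPM and 4.61, 3.32, 2.94 and 3.76 CPM in the distal colon (difference between parts −2.94 ± 0.46, adjusted p = 0.0001). Distal libraries of both fractions thus lay near the level of proximal GFP-high. Slc18a1 (−2.65 ± 0.43, adjusted p = 0.000162), Myt1 (−3.10 ± 0.56), Insm1 (−2.41 ± 0.55) and Chgb (−2.39 ± 0.57) were called in the same direction. The call of Slc18a1 was lost with the 16 libraries alone (adjusted p = 0.0694). Ddc, which makes serotonin and dopamine from their precursors, measured 54.1, 52.9, 50.3 and 65.6 against 91.3, 98.2, 139.6 and 92.5 CPM in the proximal and 132, 130.1, 157 and 173 against 122, 123, 105 and 106 CPM in the distal colon (−1.30, adjusted p = 0.0001).

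**Figure D4:**
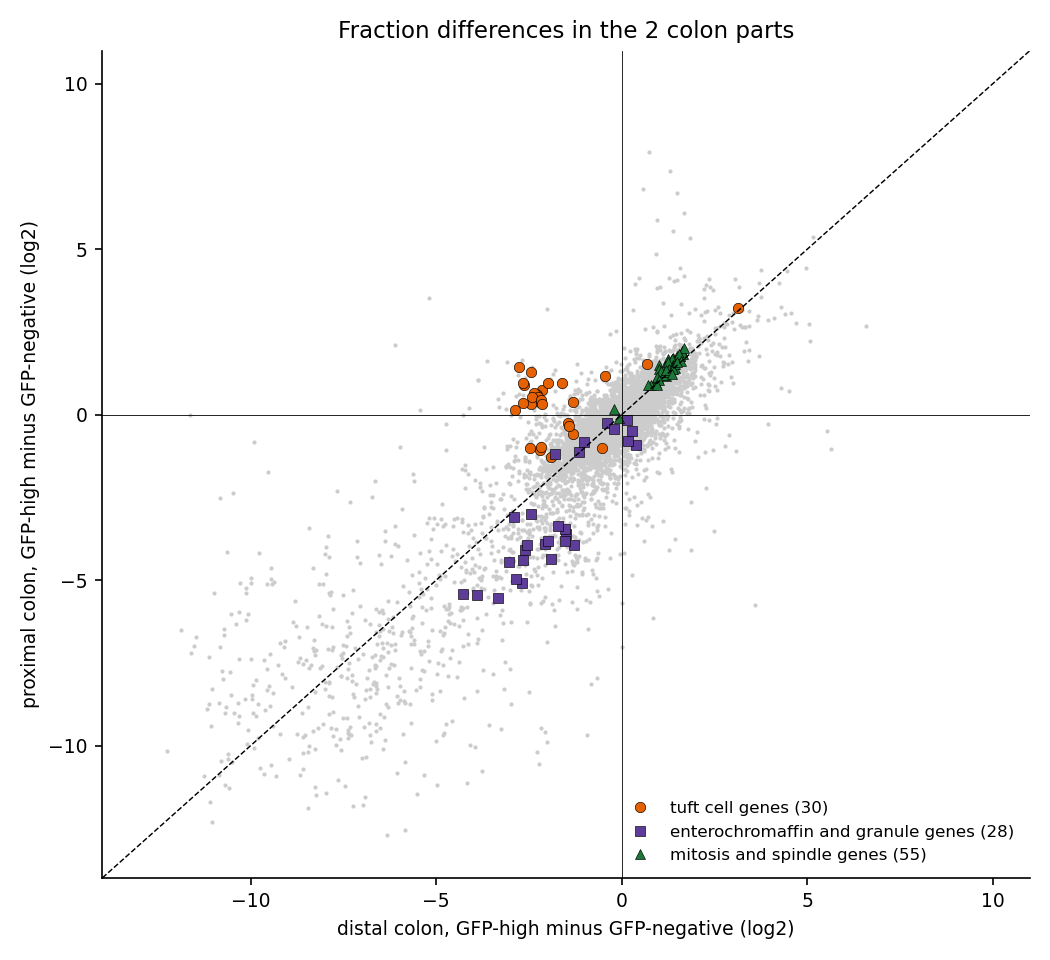
Log2 difference of GFP-high over GFP-negative in the proximal colon (y axis) against that in the distal colon (x axis) for 14626 genes with at least 1 CPM in 1 of the 4 groups, with tuft, enterochromaffin and mitosis genes coloured and a dashed line of equality. Of the tuft cell genes plotted 29 of 30 lie above the line, of the enterochromaffin genes 24 of 28 lie below it, and of the mitosis genes 49 of 55 lie above it, against 53.4% of all genes plotted. The interaction was called for 0 of the 55 mitosis genes, whose median was 1.44 in the proximal and 1.28 in the distal colon.

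Cps1 was higher in GFP-high of both parts, but by more in the proximal colon (4.10 against 2.36, difference 1.74 ± 0.31, adjusted p = 0.000669). Distal GFP-high held 107, 80.7, 145 and 123 CPM and distal GFP-negative 18.6, 22.7, 22.3 and 25.2 CPM, so the parts differed mainly in GFP-high. The call was lost with the 16 libraries alone (adjusted p = 0.102). Trf, the iron carrier transferrin, measured 1.81, 1.84, 5.11 and 2.28 against 2.18, 0.778, 8.86 and 4.89 CPM in the proximal colon and 206, 209, 348 and 262 against 22.4, 43.9, 35.9 and 37.1 CPM in the distal colon (−3.49, adjusted p = 0.00104).

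Npy1r, the neuropeptide Y receptor of the study's title, measured 2.81, 2.34, 7.04 and 6.31 CPM in proximal GFP-high and 7.89, 7.58, 19.96 and 9.17 CPM in proximal GFP-negative. The GFP-high libraries all lay below the GFP-negative libraries, but the gene was not called in the proximal colon (−1.27, adjusted p = 0.0576). Npy1r was called lower in 6 of the alternatives. Blocking by replicate gave −1.31 in all libraries (adjusted p = 0.0268) and −1.30 in the 8 libraries (0.0252). The other settings were DESeq2's size factors (0.0482), the 24 colon libraries alone (0.00943) and the newer quasi-likelihood method (0.00061). The last was the fit without GFP-negative library 2 (0.0484). The remaining alternatives, the 8 libraries without a block among them, did not call it. In the distal colon Npy1r measured 75.9, 51.0, 81.7 and 80.8 CPM in GFP-high and 15.7, 17.8, 15.9 and 20.03 CPM in GFP-negative, and the difference between parts was −3.33 (adjusted p = 0.0103). That call was lost without all libraries numbered 1 (adjusted p = 0.0608) and by DESeq2's Wald test (0.0617).

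**Figure D5:**
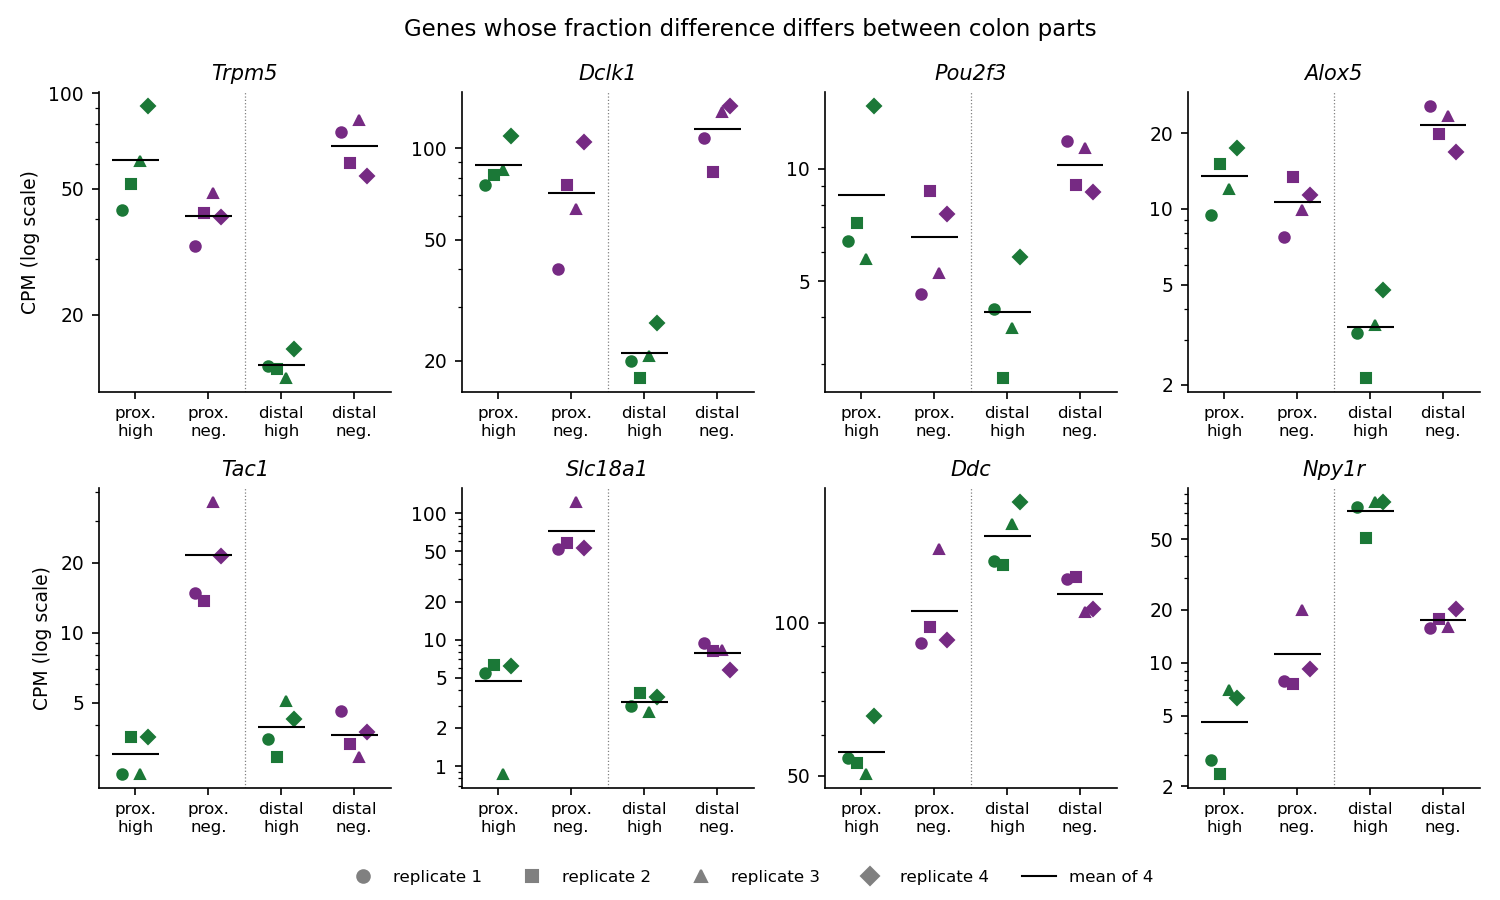
Level in CPM (log axis) of 8 genes in GFP-high and GFP-negative libraries of the proximal and the distal colon, with a point per library (4 per group) and a line at the group mean. Trpm5, Dclk1, Pou2f3 and Alox5 have their lowest mean in distal GFP-high, Tac1 and Slc18a1 their highest in proximal GFP-negative, and Npy1r its highest in distal GFP-high.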

How the data were processed

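PolyA RNA was sequenced from sorted epithelial cells of 5 parts of the mouse intestine. The deposited table holds raw read counts per gene and library, and the authors used STAR, Subread featureCounts and edgeR with mm10, per the submitters' processing notes. Versions, annotation release and strandedness are not given in the sources used here, so reads of overlapping genes cannot be told apart. Samples were grouped by title.

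Of 55357 genes, 23360 passed edgeR's filterByExpr (99.97% to 99.99% of counts kept), and all 60 libraries in 15 groups of 4 were fitted with TMM scaling and edgeR 4.0.16's quasi-likelihood test (45 residual degrees of freedom) in R 4.3.3, with Benjamini-Hochberg adjustment. Where a symbol had several identifiers, the most abundant was used. On simulated data the fit recovered 60 of 100 genes changed 2-fold and 90 of 100 changed 4-fold, and called 8 unchanged genes. The changed genes had at least 1 CPM in GFP-negative, and no other gene differed between GFP-high and GFP-negative. No effect shared by the genes of a library was simulated. These rates need not hold for the real comparison, where 25.3% of genes were called. Genes named are the 15 largest differences per direction, the 3 genes of the study's title and reporter, the members of each list with the smallest p (6 at most) plus its defining members, and the 8 smallest p per direction between colon parts. Some genes that this rule names are not reported here. Other members named beside a count were chosen after their values were seen. The comparison, its members and the 33 gene lists were chosen with earlier results of these data known. Floors of 3 counts per library cover counting error only.

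The table's batch column equals the replicate number in 60 of 60 libraries, so the numbers were taken as a batch that pairs the groups. The main fit held no term for this pairing, which entered only through the replicate block among the alternatives. Residuals of GFP-high and GFP-negative libraries with the same number correlated at −0.212, 0.075, 0.128 and −0.569 over 13031 genes, and larger correlations stood between different numbers (0.545 for GFP-high 1 with GFP-negative 4). Alternatives were DESeq2 1.42.0's Wald test and size factors, no filter, the replicate block, fewer libraries, a newer quasi-likelihood method, and leaving out each library. Leaving out all libraries numbered 1 and a minimum of 1 CPM were added after seeing the data.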

Additional observations from a re-analysis of the deposited data

Results flagged for a closer look

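In 23 of 244 pairs of a gene and a group, 1 of 4 libraries stood apart from the others, where chance gives about 1 in 20. In GFP-negative library 3 these were Rgmb (55.5 CPM) and Prdm16 (9.19 CPM) on the low side and Npy1r (19.96), Guca2a (899), Slc18a1 (124), Cpe (129.7) and Ddc (139.6 CPM) on the high side. In GFP-negative library 4 they were Fut9 (2.63) and Cd44 (198 CPM) on the high side and Notch1 (49.7) and Pyy (8.83 CPM) on the low side. Myc stood apart in GFP-negative library 2 (60.6 CPM) and Hes1 in GFP-negative library 1 (76.0 CPM). Among GFP-high libraries, library 4 stood high for Pou2f3 (14.8), Cd3g (0.42), Igha (0.154), Sh2d7 (42.0) and Avil (38.7 CPM), library 3 stood low for Slc18a1 (0.862) and high for Trf (5.11 CPM), and library 1 stood low for Bmp7 (12.6 CPM). Xist stood apart in library 1 of GFP-high (487 CPM) and of GFP-negative (164 CPM).

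The difference between GFP-high and GFP-negative itself differed between the proximal and the distal colon by edgeR's interaction test for the 17 genes examined here. These were genes chosen among the called ones by smallest p, plus Npy1r and Cps1. Pou2f3, Insm1 and Chgb, called by the same test, were not among them. It was more positive in the proximal colon for Trpm5 (2.88), Sh2d7 (2.91), Rgs13 (2.92), Pik3r5 (2.59), Dclk1 (2.75), Avil (2.60), Alox5 (3.01) and Cps1 (1.74). It was more negative for Ddc (−1.30), Tac1 (−2.94), Slc18a1 (−2.65), Fgfbp1 (−1.09), C130074G19Rik (−1.55), Gcnt4 (−1.81), Myt1 (−3.10), Trf (−3.49) and Npy1r (−3.33). With the 16 libraries alone the calls of Slc18a1, Fgfbp1, C130074G19Rik, Gcnt4 and Cps1 were lost.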

How the results depend on the processing

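Against 5912 calls (2640 higher, 3272 lower), the 8 libraries alone gave 2897 (1095 and 1802), and 1915 (683 and 1232) with the replicate block as well. A minimum of 2-fold left 3057 (908 and 2149), and 1946 genes were lower without all libraries numbered 1. Leaving out 1 library at a time gave 4562 to 6650 calls, 2102 to 3174 higher and 2089 to 3709 lower. The replicate block on all 60 libraries gave 6097. By DESeq2's size factors 2286 genes were higher and 3715 lower, and 4907 calls (2372 and 2535) had at least 1 CPM on the higher side.

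Against 144 calls between colon parts (60 more positive, 84 more negative), DESeq2's Wald test gave 275 (115 and 160), the 16 libraries alone 48 (31 and 17), and the fit without all libraries numbered 1 gave 71 (36 and 35). Leaving out 1 library at a time gave 87 to 171, 48 to 68 and 37 to 103, with 87 without proximal GFP-negative library 3.

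Directions turned for Atoh1 (0.060 without all libraries numbered 1, −0.18 to 0.26 leaving out 1 library at a time), Reg4 (−0.0020 without GFP-high library 2 to 0.60) and Trf (0.10 without GFP-negative library 3, down to −1.01), none of which was called. The causes were not tested. Of 121 named genes 98 kept their direction and their side of the threshold in every alternative, as did 11 of 17 between colon parts and 32 of 68 list counts. The 17 did not include the calls of Pou2f3, Insm1 and Chgb between colon parts, for which the alternatives were not examined. Apart from Aqp8 and Npy1r, the block on all libraries changed no call of a named gene in the proximal colon. In the 8 libraries with the block 10 named genes lost their calls, Olfm4 (adjusted p = 0.15), Ephb2 (0.172), Bmp7 (0.113), Cftr (0.166), Gata6 (0.0522), Prdm16 (0.126), Otc (0.269), Noxa1 (0.0591), Sh2d7 (0.0995) and C130074G19Rik (0.237). Depth limits genes below 1 CPM, which were 268 of the higher and 737 of the lower calls.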
